A study of Schizosaccharomyces pombe with 21 samples.

Results

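The mitochondrial ribosomal protein genes of fission yeast (Schizosaccharomyces pombe) were taken as the nuclear protein-coding genes whose product line in the authors' tables names a mitochondrial ribosomal protein. This rule gave 77 genes of the 6988 in the count table. By their product lines 45 belong to the large subunit, 26 to the small subunit and 6 carry no plain subunit number. The row for the ribosomal protein encoded in mitochondrial DNA was not counted among them, and the rows of the mitochondrial genome held 0 counts in all libraries.

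Mitochondria keep a ribosome of bacterial descent, which makes the few membrane proteins of the respiratory chain and ATP synthase that mitochondrial DNA encodes. Its ribosomal RNAs come from mitochondrial DNA, while nearly all of its proteins are encoded in the nucleus, made on cytosolic ribosomes and imported. In yeasts the mitochondrial and the cytosolic ribosome therefore depend on separate sets of nuclear genes, which can be set side by side in the same libraries.

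The series measured polyadenylated RNA by stranded RNA-seq in strain AGP72 (genotype h-) of cultures deprived of phosphate, some of which also received cycloheximide, a drug that blocks elongation by cytosolic ribosomes. Of 6 starved groups, 3 were given the drug at 100 µg/ml and sampled at 2, 4 and 8 h, and 3 were sampled at the same times with no drug. The reference was log-phase cells in YES medium with no drug (0 h), whereas the starved cultures were in ePMGT medium lacking phosphate. A comparison with 0 h therefore holds the change of medium together with starvation, and for the treated groups the drug as well; these cannot be told apart. Each group had 3 libraries, called biological replicates in the labels, and p-values measure the spread between these libraries only. No group was treated with cycloheximide in phosphate-replete medium.

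Library totals ranged from 22079413 to 33563867 counts, and the members together held 116435 to 201719 counts per library. Of the 77 members 76 passed the filter on low counts, with at least 79 counts in every library, so that no member passed through a single group. Changes were tested with edgeR's quasi-likelihood test in 1 fit over all 21 libraries, with Benjamini-Hochberg adjustment over all 6392 genes tested. Below, a gene "rose" or "fell" at an adjusted p below 0.05, and it is "called" where the change was also at least 2-fold. Levels are CPM, the counts scaled to a common library total by TMM. Levels of single genes are set against each other only as CPM per kb of coding length. The level of a transcript here is its share of the polyadenylated RNA, so a change in the total RNA of a cell is not seen.

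Levels per kb differed widely between members at 0 h. The gene mrps16 (subunit S16) was highest, with 387 ± 7.90 CPM per kb, and mrpl12 had 313 ± 5.11 (mean ± SD, n = 3). The gene mrpl12 encodes the L12 protein of the stalk that binds elongation factors in bacteria. At the other end, mrpl27 (L41) had 45.9 ± 4.86 CPM per kb, and the near-copies cox1101 and cox1102, which join a cytochrome c oxidase assembly protein to Rsm22, had 3.01 ± 0.286 and 2.69 ± 0.368. Reads of this pair may have been split between the copies by the counting. The gene new15 (L35) was at 0 counts in all 21 libraries, where 3 counts would correspond to 0.0845 to 0.145 CPM, and it was not tested. Whether new15 is silent or its reads were not counted cannot be told from these counts.

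The members' summed level was lower at each later time without drug, and with drug it was lowest at 2 h. With cycloheximide their summed level was 5261 ± 39.1 CPM after 2 h, 5738 ± 84.5 after 4 h and 5709.8 ± 99.6 after 8 h (mean ± SD of 3 libraries). Without drug the sum was 6947 ± 52.9 CPM at 0 h, 6351 ± 31.1 at 2 h, 5614 ± 56.9 at 4 h and 5099 ± 19.5 at 8 h. The 4 groups without drug did not overlap in any library, and with drug the 2 h libraries lay below those of 4 and 8 h, which overlapped. The ratio of the large-subunit to the small-subunit sum stayed between 1.79 and 1.94 over all libraries.

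The cytosolic ribosome showed a far wider range in the same libraries. The 130 genes of its proteins summed to 142729 ± 9311, 154503 ± 5949.7 and 133487 ± 5997 CPM at 2, 4 and 8 h with drug, and to 223391 ± 8209.7, 168638 ± 4702, 40973 ± 2042 and 21352 ± 2074 CPM at 0, 2, 4 and 8 h without. The cytosolic sum was 4.19 times the mitochondrial sum at 8 h of starvation, against 32.2 times at 0 h. With drug the cytosolic sum was still 23.4 times as large at 8 h. These ratios are of summed CPM with no scaling by coding length, so they are read only for their change between groups.

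**Figure D1:**
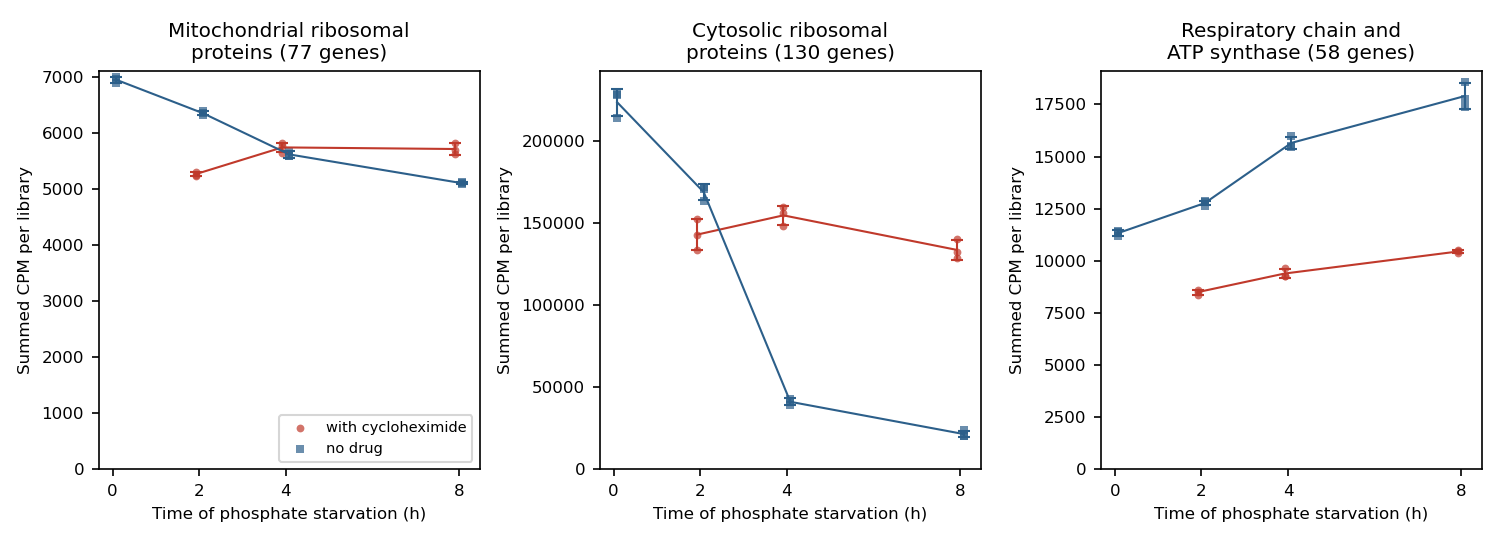
Summed CPM per library (vertical axis, linear, from 0) against hours of phosphate starvation for the mitochondrial ribosomal proteins, the cytosolic ribosomal proteins and the respiratory chain with ATP synthase. Points are libraries, lines join group means and bars are SD (n = 3); circles are cultures with cycloheximide and squares cultures with no drug. The mitochondrial ribosomal sum without drug ends at 5099 CPM against 6947 at 0 h, while the cytosolic sum ends at 21352 against 223391.

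The first question of the design is what changed in starved cultures without drug, where starvation and the change of medium came together. The members drifted down in small steps, and few changed by as much as 2-fold. At 2 h, 10 members rose (30.5% of all 6392 genes tested did) and 35 fell (34.6% of all genes). None was called higher or lower by edgeR or by DESeq2, against 3.94% and 1.81% of all genes, and 50 of the 76 had an unadjusted p below 0.05. The share of all genes at an unadjusted p was not computed, here or for the later counts of this kind. At the adjusted p, 31 of the 76 members did not pass, beside 2233 of the 6392 genes. At 4 h, 9 rose (41.6% of all genes) and 49 fell (42.1%). Again none was called by edgeR or by DESeq2, where 14.2% of all genes were called higher and 13.9% lower, and 58 members had an unadjusted p below 0.05. At 8 h, 10 rose (43.3% of all genes) and 53 fell (43.3%), with 0 called higher against 19.0% of all genes and 6 called lower against 15.6%. DESeq2 called 5 of these 6. The median log2 fold change over the members was -0.11 at 2 h, -0.26 at 4 h and -0.41 at 8 h, where that of all genes was -0.02, 0.00 and -0.01.

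The counts of risers and fallers depend on the scaling. With library size alone the median of all genes moved to 0.20 at 4 h and 0.19 at 8 h, and the split of the members became 19 up and 18 down at 2 h, 23 and 30 at 4 h, and 20 and 46 at 8 h. With RLE factors it was 16 up and 31 down at 2 h. The distance of the members' median from that of all genes was -0.09, -0.25 and -0.40 at 2, 4 and 8 h. A change of scaling moves all genes of a comparison by about the same amount. This distance therefore stays the same under each of these scalings by construction and is no check on them.

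The large subunit held 3 of the 6 genes called lower at 8 h. The gene mrpl20 encodes L58, a protein with no bacterial counterpart. mrpl20 had 11.7, 15.6 and 14.7 CPM at 8 h, against 36.9, 36.01 and 32.5 CPM at 0 h. The groups did not overlap, and the first 8 h library was the lowest of its group; the log2 fold change was -1.32 ± 0.08 (adjusted p = 2.46e-13), and -1.21 without that library. Reads of mrpl20 may include those of a gene annotated over it on the same strand. The gene mrpl3 encodes L44, which carries a ribonuclease III-like fold. mrpl3 had 44.1, 41.9 and 42.4 CPM at 8 h, against 88.01, 87.3 and 88.7 CPM at 0 h. All starved libraries lay below all replete ones, with a log2 fold change of -1.04 ± 0.04 (adjusted p = 1.11e-16). The gene mrpl35 encodes L38, a protein of the central protuberance of the yeast mitochondrial ribosome. mrpl35 had 59.4, 53.2 and 56.3 CPM at 8 h, against 112, 113 and 117 CPM at 0 h. The groups stood apart, but its log2 fold change of -1.02 ± 0.04 (adjusted p = 1.51e-16) sat on the 2-fold line; it was -0.98 without the second 8 h library, and DESeq2 did not call it.

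The small subunit held the other 3. The gene mrp5 encodes S5. mrp5 had 50.3, 47.2 and 45.6 CPM at 8 h, against 106, 111 and 112 CPM at 0 h. The groups were far apart, with a log2 fold change of -1.20 ± 0.04 (adjusted p = 7.22e-18). The gene mrps9 encodes S9, whose bacterial counterpart reaches toward the peptidyl-tRNA site, and another gene is annotated over it on the same strand. mrps9 had 60.1, 61.5 and 64.9 CPM at 8 h, against 131, 129.9 and 131 CPM at 0 h. No library of one group reached the other, and the log2 fold change was -1.07 ± 0.04 (adjusted p = 1.89e-17). The gene nam9 encodes S4, known in bacteria and budding yeast for its part in decoding accuracy. nam9 had 52.9, 50.7 and 50.2 CPM at 8 h, against 101, 106 and 108 CPM at 0 h. It too showed no overlap, and its log2 fold change was -1.03 ± 0.04 (adjusted p = 2.45e-16). With library size alone the 5 of these genes other than mrpl20 were under 2-fold, so that 1 call was left at 8 h.

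A minority rose. The gene mrp7 encodes L27, whose bacterial counterpart lies near the peptidyl transferase centre, and it was the member with the largest rise at 4 and 8 h. Its libraries had 53.1, 54.5 and 50.6 CPM at 0 h, 61.3, 64.9 and 63.1 at 2 h, 75.1, 76.8 and 76.02 at 4 h and 80.8, 90.6 and 84.3 at 8 h. Each time point lay above the one before it in all libraries, and the log2 fold change was 0.53 ± 0.04 at 4 h and 0.70 ± 0.04 at 8 h (adjusted p = 1.73e-10 and 1e-12). Of the small subunit, rsm27 (S33) rose at 8 h. rsm27 had 93.8, 92.99 and 93.7 CPM at 8 h, against 64.1, 64.6 and 65.9 CPM at 0 h. The 8 h libraries agreed closely and all lay above 0 h (log2 fold change 0.53 ± 0.03, adjusted p = 9.63e-13). The gene mrps16 (S16), the member with the highest level per kb, also rose. mrps16 had 163, 157 and 152 CPM at 8 h, against 112, 110.3 and 115 CPM at 0 h. These groups did not overlap (log2 fold change 0.48 ± 0.03, adjusted p = 1.2e-11). The gene mrp21 (S21) rose by 0.40 ± 0.07 on the log2 scale (adjusted p = 2.3e-05), and its first 8 h library, at 59.6 CPM, stood below the other two.

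Early changes were small but reached the test. At 2 h the largest falls were those of mrp17 (S6) at -0.45 ± 0.04, mrpl3 at -0.40 ± 0.04, rsm24 (S35) at -0.38 ± 0.05 and sws2 (S13) at -0.37 ± 0.04 on the log2 scale, with adjusted p of 3.2e-10, 8.78e-09, 2.99e-07 and 1.55e-08. The largest rises at 2 h were those of mrp21 (0.30 ± 0.07), mrp10 (S37, 0.30 ± 0.05), mrpl31 (L60, 0.29 ± 0.07) and mrp7 (0.26 ± 0.04), with adjusted p of 0.000893, 1.05e-05, 0.00137 and 2.55e-05. At 4 h mrp17 had fallen by 0.93 on the log2 scale, the furthest of all members, followed by mrpl3 at -0.85 ± 0.04, mrp5 at -0.78 ± 0.04 and rsm24 at -0.77 ± 0.05 (adjusted p = 1.97e-16, 4.87e-15, 1.56e-14 and 5.62e-13). Besides mrp7, the highest at 4 h were mrp10 (0.33 ± 0.05), snr1 (0.28 ± 0.05) and mrps16 (0.28 ± 0.03), with adjusted p of 1.54e-06, 2.95e-05 and 1.95e-07. Of these, snr1 encodes S47, which is also the enzyme 3-hydroxyisobutyryl-CoA hydrolase.

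Most genes of both subunits fell. At 8 h, 31 of 44 tested large-subunit members and 18 of 26 small-subunit members fell, with medians of -0.39 and -0.61 on the log2 scale, and 5 and 4 rose. Of the 6 other members 4 fell and 1 rose, with a median of -0.39. The difference between the subunits was not tested.

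Between starved time points the decline went on in both intervals. From 2 to 4 h, 10 members rose (37.8% of all genes) and 42 fell (38.0%), with a median log2 fold change of -0.14. From 4 to 8 h, 6 rose (35.6%) and 41 fell (34.5%), with a median of -0.15; the median of all genes was 0.00 in both. No member was called in either interval by edgeR or DESeq2, against 7.60% of all genes higher and 6.62% lower from 2 to 4 h, and 3.77% and 2.78% from 4 to 8 h, and the unadjusted counts were 55 and 52. With library size alone the split from 2 to 4 h was 17 up and 28 down. The largest falls between 2 and 4 h were in mrp5 (-0.65 ± 0.04), mrp17 (-0.48 ± 0.04), mrpl20 (-0.47 ± 0.07) and mrpl3 (-0.45 ± 0.04), and the largest rises in mrp7 and SPCC777.17c (L9), at 0.27 ± 0.04 and 0.27 ± 0.08, with mrpl27 (0.25 ± 0.10) and snr1 (0.21 ± 0.05) next. Between 4 and 8 h they were in mrpl20 (-0.66 ± 0.08), mrps9 (-0.58 ± 0.04), mrpl35 (-0.55 ± 0.04) and rsm10 (S10, -0.51 ± 0.06), while rsm27 had 0.41 ± 0.03. The next highest from 4 to 8 h were mrps16 (0.21 ± 0.03), mrp21 (0.17 ± 0.07) and mrp7 (0.17 ± 0.04). The adjusted p of these 16 values ran from 9.04e-13 for mrp5 to 0.0342 for mrp21. Group means fell at every step from 0 through 2 and 4 to 8 h in 37 of 76 members (48.7%), against 21.6% of all genes tested, and rose at every step in 3 members (3.95%), against 20.5%. These shares describe means and carry no test.

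**Figure D2:**
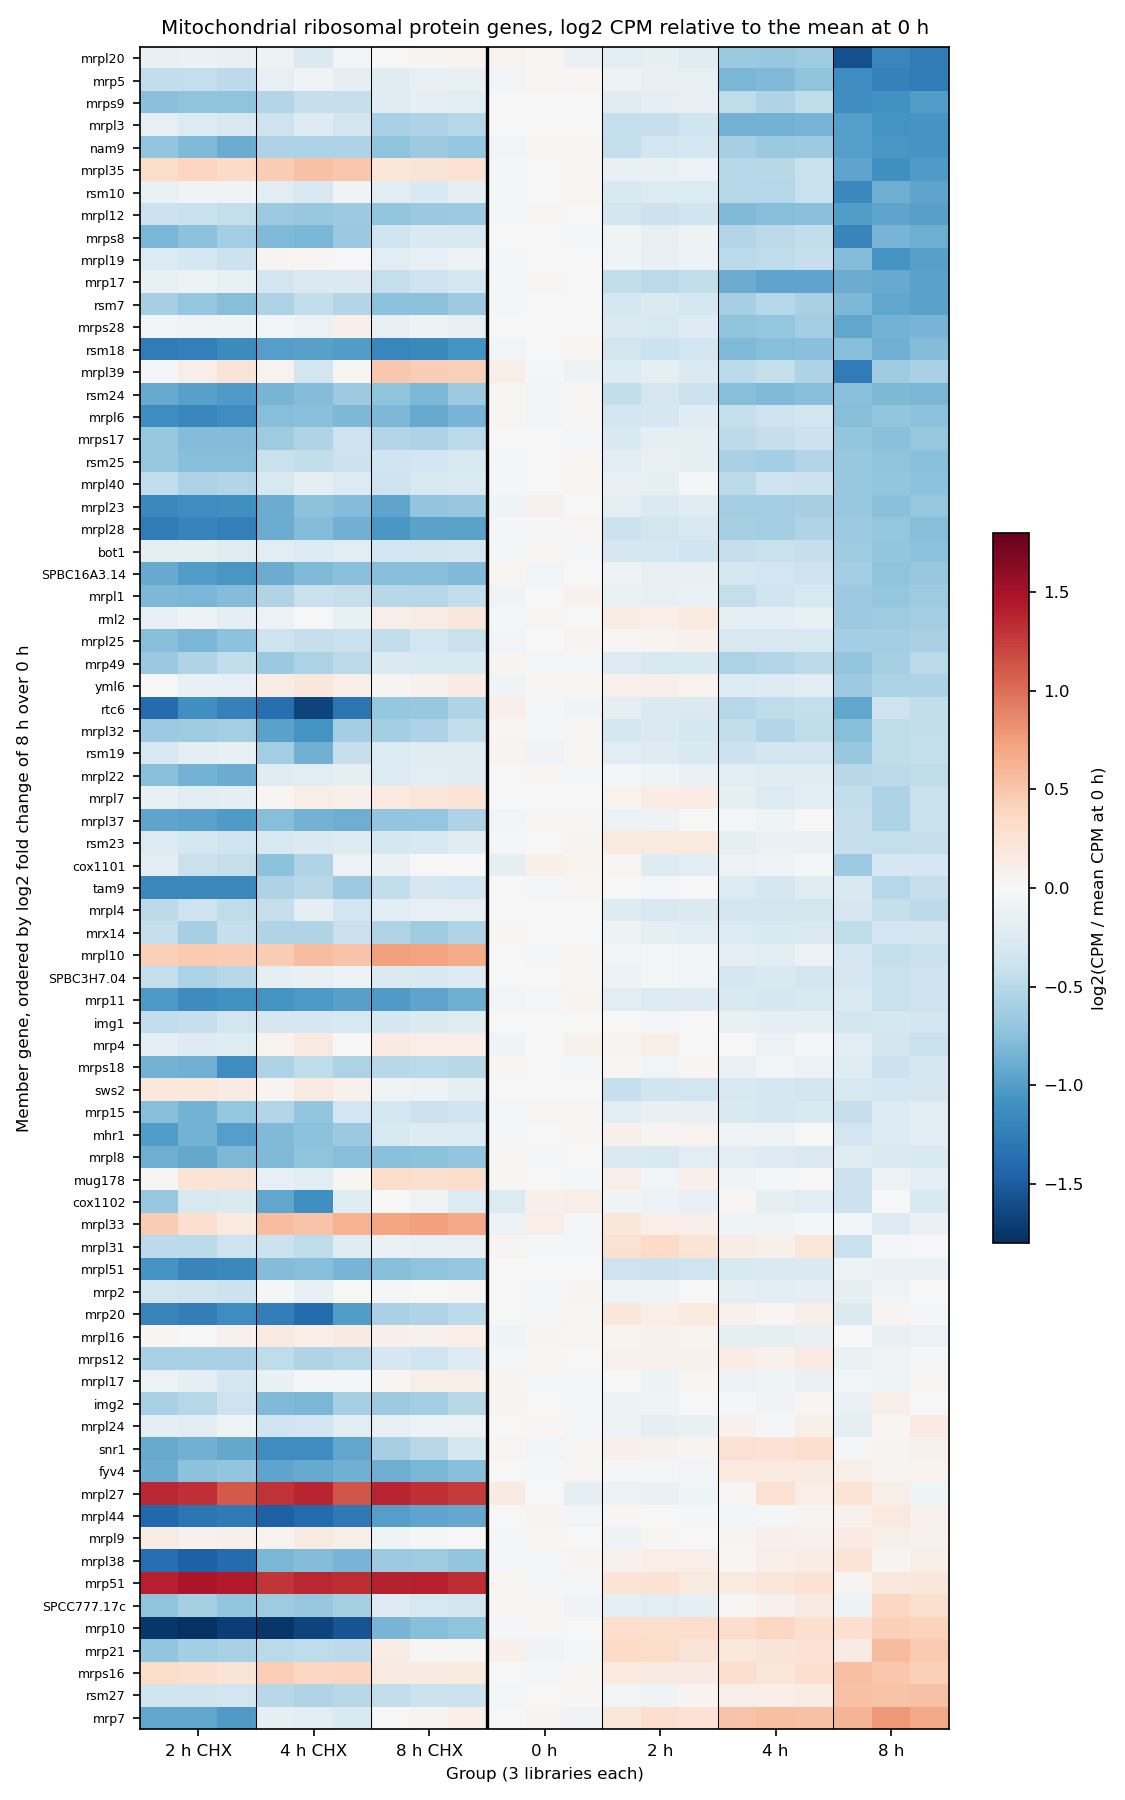
Each row is 1 of 75 tested members and each column 1 library, grouped as 2, 4 and 8 h with cycloheximide (left of the thick line) and 0, 2, 4 and 8 h without drug (right). Colour is log2 of CPM over the mean CPM at 0 h, red above and blue below, and rows run down the page from the lowest to the highest log2 fold change of 8 h over 0 h. The starved columns on the right darken to blue with time for most rows, while mrp51 and mrpl27 are red in all 9 columns with drug and mrp10 is blue there.

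The second question is what cycloheximide did at a matched time of starvation. Here single members moved further than in the untreated comparisons with 0 h, and in both directions. At 2 h, 14 members rose (41.5% of all genes) and 54 fell (44.2%), with 2 called higher against 15.8% of all genes and 8 called lower against 13.5%. At 4 h, 27 rose (43.7%) and 38 fell (45.8%), with 2 called higher against 19.9% and 5 called lower against 20.9%. At 8 h, 39 rose (43.2%) and 24 fell (45.9%), with 7 called higher against 17.1% and 2 called lower against 20.8%. The median log2 fold change of drug over no drug was -0.39 at 2 h, -0.10 at 4 h and 0.11 at 8 h, where that of all genes was -0.04, -0.04 and -0.03. The median at 4 h was -0.19 with library size alone, where that of all genes was -0.14, and -0.0636 with RLE factors, -0.0637 with DESeq2 and -0.0583 without the first treated 4 h library. At 2, 4 and 8 h 8, 11 and 13 members did not pass the test. In these comparisons medium and starvation were shared by both groups.

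The same small-subunit gene had the lowest log2 fold change at all 3 times. The gene mrp10 encodes S37, in budding yeast a small protein with a twin CX9C motif that enters mitochondria by oxidative folding. mrp10 had 11.9, 11.6 and 12.3 CPM at 2 h with drug, against 48.9, 48.6 and 49.9 CPM at 2 h without. mrp10 had 11.9, 12.5 and 13.6 CPM at 4 h with drug, against 49.9, 51.7 and 48.5 CPM at 4 h without. mrp10 had 22.2, 23.4 and 24.1 CPM at 8 h with drug, against 48.9, 53.6 and 52.7 CPM at 8 h without. Every treated library lay below every untreated one, and the treated 8 h libraries were above the treated 2 and 4 h ones. The log2 fold changes were -2.04 ± 0.05, -1.98 ± 0.05 and -1.15 ± 0.05 at 2, 4 and 8 h (adjusted p = 3.05e-19, 1.66e-19 and 7.57e-16). Over all 7 groups mrp10 had the widest range of the members, its highest group mean being 4.33 times its lowest.

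A large-subunit gene was also called lower at all 3 times. The gene mrpl44 encodes L53, which has no bacterial counterpart. mrpl44 had 13.4, 14.3 and 14.7 CPM at 2 h with drug, against 36.1, 35.6 and 35.03 CPM at 2 h without. mrpl44 had 12.8, 13.4 and 14.6 CPM at 4 h with drug, against 34.3, 34.6 and 36.6 CPM at 4 h without. mrpl44 had 17.9, 18.4 and 18.7 CPM at 8 h with drug, against 37.6, 39.98 and 37.5 CPM at 8 h without. The treated and untreated libraries were separated by a wide gap at each time. The log2 fold changes were -1.34 ± 0.06, -1.37 ± 0.06 and -1.06 ± 0.05 (adjusted p = 7.28e-16, 2.77e-16 and 1.44e-14). No annotated gene overlaps mrp10 or mrpl44 in the RefSeq annotation (assembly ASM294v3).

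Other large-subunit genes were called lower at 2 h and less far down, or not called, later. The gene mrpl38 encodes L14, which in bacteria forms a bridge to the small subunit. mrpl38 had 19.4, 18.3 and 19.3 CPM at 2 h with drug, against 53.3, 54.6 and 54.5 CPM at 2 h without. The groups did not overlap and the log2 fold change was -1.51 ± 0.05 (adjusted p = 1.34e-17), with -0.90 ± 0.05 at 4 h and -0.80 ± 0.05 at 8 h. The gene mrp20 encodes L23, a protein at the exit of the peptide tunnel. mrp20 had 32.4, 31.3 and 34.2 CPM at 2 h with drug, against 85.1, 80.3 and 83.4 CPM at 2 h without. It was called lower at 2 h (-1.35 ± 0.07, adjusted p = 6.24e-14) and 4 h (-1.28 ± 0.07, adjusted p = 1.26e-13), with -0.46 ± 0.07 at 8 h. The riser of the starved series, mrp7, was lower with drug throughout. mrp7 had 27.5, 27.5 and 26.1 CPM at 2 h with drug, against 61.3, 64.9 and 63.1 CPM at 2 h without. mrp7 had 53.2, 54.6 and 57.3 CPM at 8 h with drug, against 80.8, 90.6 and 84.3 CPM at 8 h without. Both times showed full separation, and the log2 fold changes were -1.22 ± 0.05, -0.75 ± 0.04 and -0.63 ± 0.04 at 2, 4 and 8 h.

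The remaining calls at 2 h were tam9 (L31) at -1.15 ± 0.05, mhr1 (L67, in budding yeast also a factor of mitochondrial DNA recombination) at -1.01 ± 0.04 and rtc6 (L36) at -1.001 ± 0.11 on the log2 scale (adjusted p = 6.25e-15, 1.07e-15 and 1.06e-08). Both mhr1 and rtc6 sat at the 2-fold line, and DESeq2 called neither. Without the first or the third treated 2 h library mhr1 had -0.987 and -0.995, and without the first untreated or the first treated 2 h library rtc6 had -0.975 and -0.928. At 4 h the small-subunit genes snr1 and fyv4 (S41) were called lower. snr1 had 32.7, 32.5 and 37.00 CPM at 4 h with drug, against 85.6, 84.8 and 87.4 CPM at 4 h without. The treated libraries were all lower (-1.34 ± 0.05, adjusted p = 3.16e-16), and for fyv4 the log2 fold change was -1.07 ± 0.04 (adjusted p = 7.2e-17). At 8 h rsm27 and fyv4 came next after mrp10 and mrpl44, at -0.93 ± 0.03 and -0.90 ± 0.04 (adjusted p = 2.88e-17 and 1.73e-15), under 2-fold.

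Against this trend 2 members were called higher at all 3 times. The gene mrp51 is annotated as a protein of the bS1 kind, whose budding yeast counterpart acts with the leaders of mitochondrial messenger RNAs. For want of a plain subunit number mrp51 was counted in neither subunit here, and its family type was not classed. mrp51 had 243, 254 and 247 CPM at 2 h with drug, against 109, 111 and 103 CPM at 2 h without. mrp51 had 224, 236 and 231 CPM at 4 h with drug, against 103, 108 and 111 CPM at 4 h without. mrp51 had 241, 242 and 232 CPM at 8 h with drug, against 95.6, 105 and 106 CPM at 8 h without. All 9 treated libraries lay above all untreated ones. The log2 fold changes were 1.21 ± 0.04, 1.10 ± 0.04 and 1.23 ± 0.04 (adjusted p = 9.77e-18, 2.27e-17 and 3.68e-18). The gene mrpl27 (L41), one of the members with the lowest level per kb, moved in the same way. mrpl27 had 33.1, 32.2 and 27.7 CPM at 2 h with drug, against 11.99, 11.9 and 12.3 CPM at 2 h without. mrpl27 had 31.9, 33.4 and 28.4 CPM at 4 h with drug, against 13.2, 15.7 and 14.1 CPM at 4 h without. mrpl27 had 33.5, 32.3 and 30.9 CPM at 8 h with drug, against 15.3, 13.97 and 12.3 CPM at 8 h without. Its treated libraries scattered more than those of mrp51 but none overlapped the untreated ones. The log2 fold changes were 1.36 ± 0.09, 1.13 ± 0.09 and 1.22 ± 0.09 (adjusted p = 3.66e-12, 4.89e-11 and 1.41e-11). The RefSeq annotation places other genes over mrp51 on the opposite strand and over mrpl27 on both strands, and which strand was counted is not stated. Their reads may therefore include those of the overlapping genes. The same holds for most members: 67 of 77 overlap an annotated gene on the opposite strand, among them mrp5, mrpl3, mrpl35, mrpl39, nam9, mrp20, snr1 and fyv4, and 9 overlap one on the same strand, among them mrpl20, mrps9 and fyv4. The next highest under 2-fold were sws2 and mrpl10 at 2 h (0.54 ± 0.04 and 0.49 ± 0.04) and mrpl35 and mrpl10 at 4 h (0.97 ± 0.04 and 0.66 ± 0.04). Without the third untreated 4 h library mrpl35 reached 1.01 and was called.

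**Figure D3:**
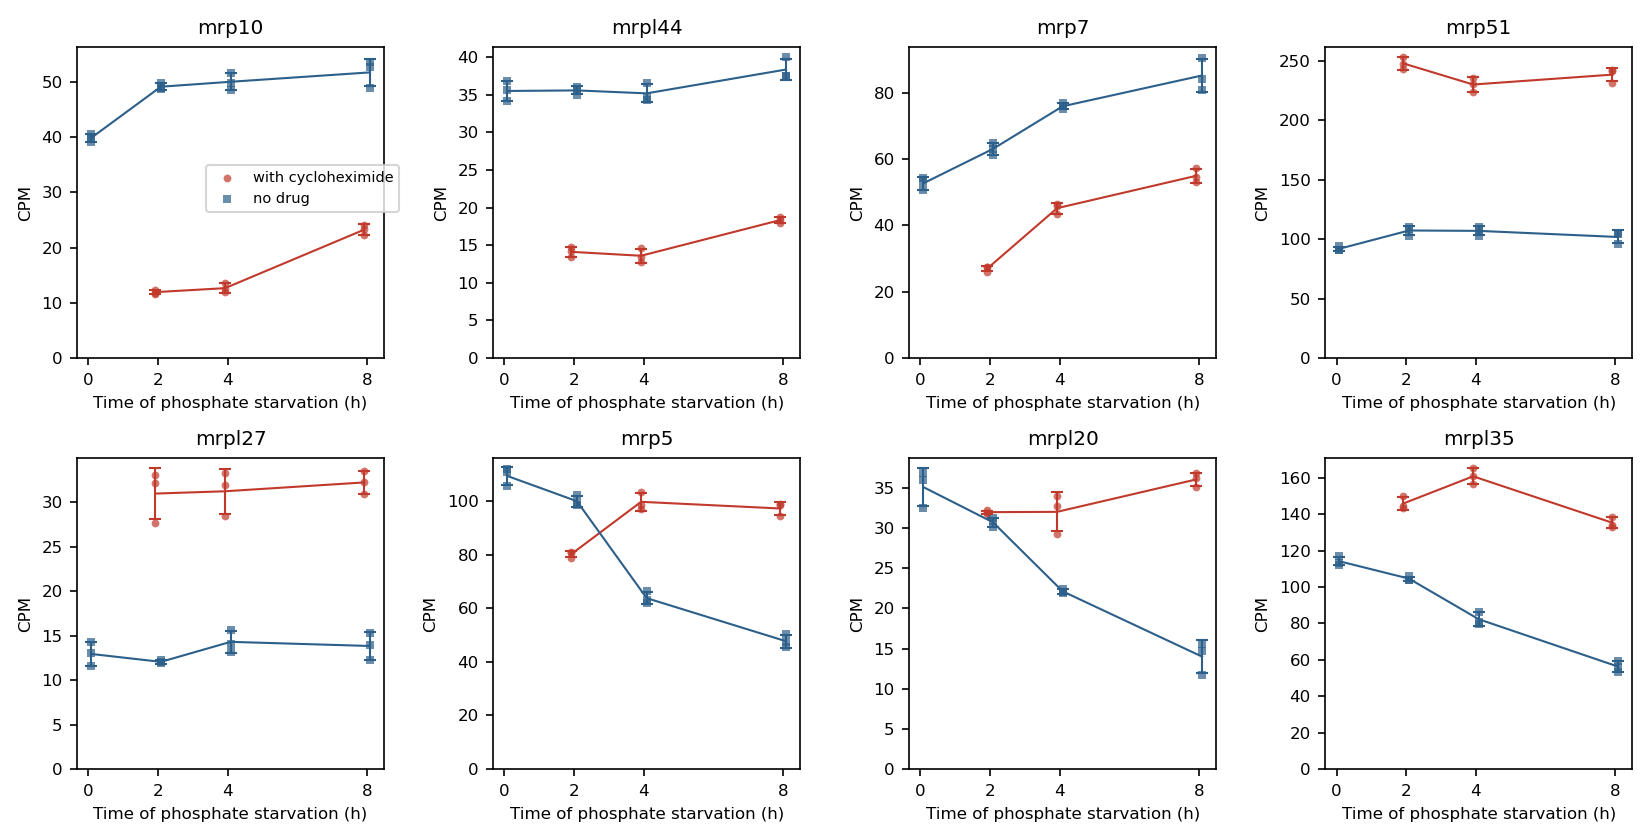
CPM (vertical axes, linear, from 0) against hours of phosphate starvation for 8 members; circles are libraries with cycloheximide, squares libraries with no drug, lines join group means and bars are SD (n = 3). In the treated cultures mrp10, mrpl44 and mrp7 lie below the untreated ones at every time and mrp51 and mrpl27 above, while the curves of mrp5 cross between 2 and 4 h and those of mrpl20 and mrpl35 draw apart as the untreated level falls.

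At 8 h 5 further members were called higher with drug. Of these, 3 genes, mrpl20, mrpl35 and mrp5, were called lower at 8 h over 0 h without drug. mrpl20 had 35.2, 36.2 and 36.8 CPM at 8 h with drug, against 11.7, 15.6 and 14.7 CPM at 8 h without. mrpl35 had 133, 134 and 139 CPM at 8 h with drug, against 59.4, 53.2 and 56.3 CPM at 8 h without. mrp5 had 94.3, 98.9 and 98.4 CPM at 8 h with drug, against 50.3, 47.2 and 45.6 CPM at 8 h without. None of these overlapped, and the log2 fold changes were 1.36 ± 0.08, 1.27 ± 0.04 and 1.03 ± 0.04 (adjusted p = 9.87e-14, 2.1e-18 and 9.76e-17). Relative to 0 h the treated 8 h cultures had log2 fold changes of 0.04 ± 0.07, 0.24 ± 0.04 and -0.17 ± 0.04. The call of mrp5 was at the threshold, since its log2 fold change was 0.996 without the third untreated 8 h library. The others were mrpl39 (L33) and mrpl10 (L15). mrpl39 had 62.8, 60.8 and 60.7 CPM at 8 h with drug, against 18.7, 28.9 and 29.8 CPM at 8 h without. The first untreated library was far below the other two; the log2 fold change was 1.252 ± 0.12 (adjusted p = 1.03e-09), and 1.06 without that library. mrpl10 had 114, 114 and 110.0 CPM at 8 h with drug, against 55.98, 51.3 and 52.4 CPM at 8 h without. No library of mrpl10 overlapped (log2 fold change 1.08 ± 0.04, adjusted p = 7.37e-18).

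**Figure D4:**
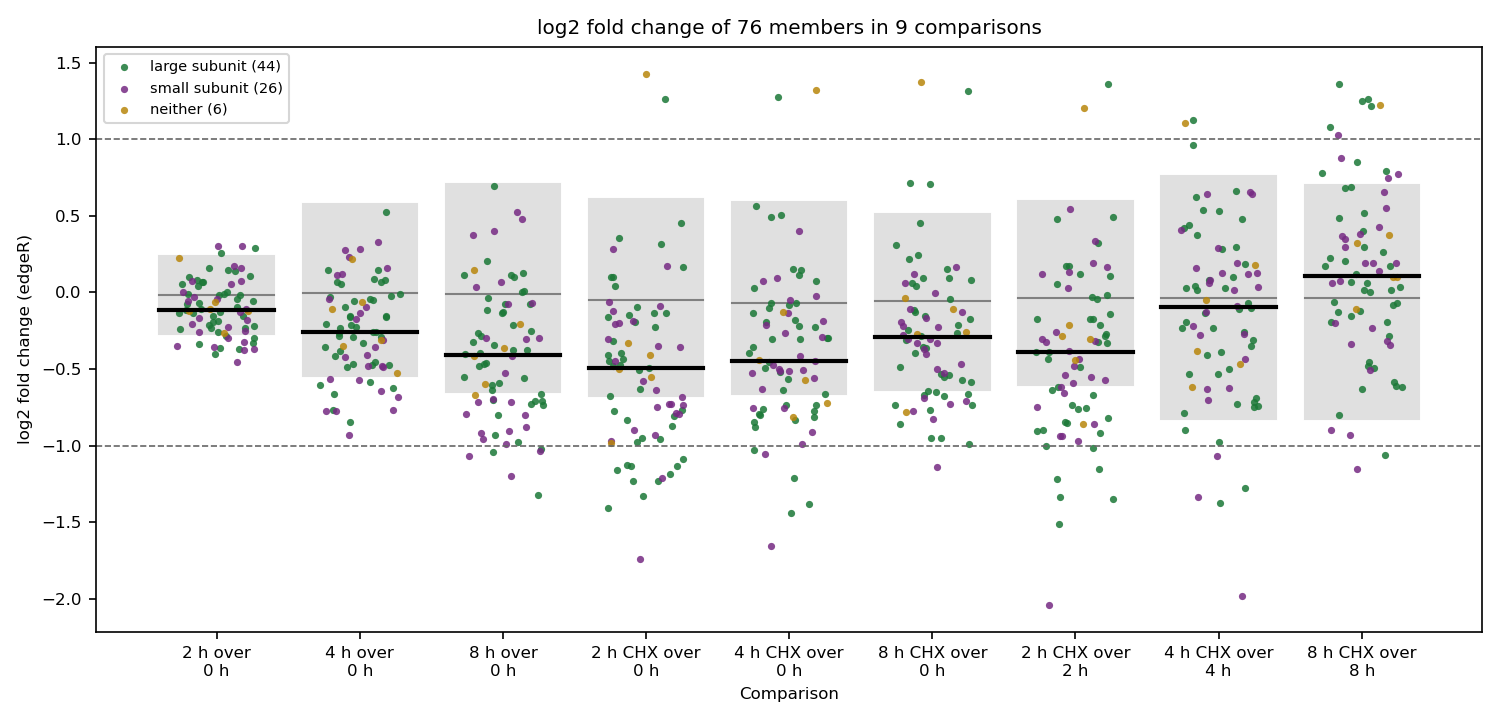
Each point is the log2 fold change of 1 of 76 members in 1 of 9 comparisons, green for the large subunit, purple for the small subunit and ochre for the others; points are spread sideways at random. Black bars are the members' medians, grey lines and boxes the median and the interquartile range of all 6392 genes tested, and dashed lines mark 2-fold. The black bar moves down to -0.41 over the starved series and sits lowest, at -0.50, for 2 h with drug over 0 h.

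Treated cultures were also set against 0 h, a comparison that shares its reference with that of the untreated ones. At 2 h with drug 9 members rose (41.0% of all genes) and 62 fell (46.0%), with 2 called higher against 17.0% and 12 called lower against 14.5%. At 4 h with drug 10 rose (40.8%) and 57 fell (45.7%), with 2 called higher against 14.8% and 6 lower against 14.8%. At 8 h with drug 13 rose (38.9%) and 53 fell (45.3%), with 2 called higher against 12.6% and 1 lower against 14.1%. Under library-size scaling the last split was 20 up and 34 down. The medians were -0.50, -0.45 and -0.29 on the log2 scale, where those of all genes were -0.05, -0.07 and -0.06. The 2 called higher were mrp51 and mrpl27 each time, at 1.43 ± 0.04, 1.32 ± 0.04 and 1.37 ± 0.04 for mrp51 and 1.27 ± 0.09, 1.28 ± 0.09 and 1.32 ± 0.09 for mrpl27. The next highest were mrpl10 and mrpl35 at 2 h (0.45 ± 0.04 and 0.35 ± 0.04) and mrpl33 (L30) and mrpl10 at 4 h (0.57 ± 0.07 and 0.51 ± 0.04) and 8 h (0.72 ± 0.07 and 0.71 ± 0.04), all under 2-fold.

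At 2 h with drug over 0 h, 35 of 44 tested large-subunit members and 22 of 26 small-subunit members fell. Their medians were -0.49 and -0.61 on the log2 scale, and the difference between the subunits was not tested. Of the 12 members called lower there, 10 were of the large subunit. Besides mrpl38 (-1.41 ± 0.05), mrpl44 (-1.33 ± 0.06), rtc6, mrp20 and tam9 they were mrpl28 (L40), mrpl6 (L6), mrpl51 (L43), mrpl23 (L13) and mrp11 (L10), the last of which anchors the stalk in bacteria. mrpl28 had 30.1, 31.2 and 30.5 CPM at 2 h with drug, against 71.2, 70.8 and 73.7 CPM at 0 h. These did not overlap, and the log2 fold change of mrpl28 was -1.23 ± 0.04 (adjusted p = 2.97e-17). The small-subunit genes were mrp10 (-1.74 ± 0.06) and rsm18 (S18). rsm18 had 39.9, 40.9 and 43.3 CPM at 2 h with drug, against 92.3, 96.1 and 98.4 CPM at 0 h. rsm18 had 42.4, 42.6 and 45.3 CPM at 8 h with drug, against 92.3, 96.1 and 98.4 CPM at 0 h. Among the members rsm18 was the one called lower at 8 h with drug (-1.14 ± 0.04, adjusted p = 2.61e-17), and its untreated 8 h level of 54.9 ± 1.91 CPM was also below that at 0 h. The next lowest at 8 h with drug were mrpl28 (-0.99 ± 0.04), mrp11 (-0.95 ± 0.04) and mrpl44 (-0.95 ± 0.05). Leaving out the second 0 h library or the second or the third treated 8 h library put mrpl28 just past 2-fold, at -1.002 to -1.006. At 4 h with drug the genes called lower were mrp10 (-1.66 ± 0.06), rtc6 (-1.44 ± 0.11), mrpl44 (-1.38 ± 0.06), mrp20 (-1.21 ± 0.07), snr1 (-1.05 ± 0.06) and mrp11 (-1.03 ± 0.04), the last 2 of which DESeq2 did not call; without the third 0 h library mrp11 had -0.996. Across the 9 comparisons with 0 h or at matched times, 26 of the 76 members (34.2%) were called at least once, against 66.5% of all genes tested.

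Within the treated cultures the course ran upward. From 2 to 4 h with drug 39 members rose (37.2% of all genes) and 11 fell (28.1%), and from 4 to 8 h 34 rose (30.1%) and 14 fell (37.2%), with medians of 0.11 and 0.06 where those of all genes were 0.04 and -0.03. Fitted on the compared groups alone the medians were 0.0699 and 0.0948, and the second was 0.0895 without the first treated 8 h library. No member was called in either interval by edgeR or DESeq2, against 0.782% of all genes higher and 5.18% lower from 2 to 4 h and 3.00% and 4.88% from 4 to 8 h, with 52 and 51 members at an unadjusted p below 0.05. Under library-size scaling the split from 4 to 8 h was 52 up and 4 down, and mrp10 was then called higher. The largest rises from 2 to 4 h with drug were those of mrp7 (0.74 ± 0.05), mrpl22 (L22, 0.64 ± 0.04), tam9 (0.60 ± 0.06) and mrpl38 (0.60 ± 0.05), and the lowest values those of rsm19 (-0.43 ± 0.08), cox1102 (-0.31 ± 0.18), mug178 (-0.27 ± 0.07) and mrpl12 (-0.26 ± 0.03). From 4 to 8 h they were those of mrp10 (0.88 ± 0.06), rtc6 (0.80 ± 0.11) and mrp20 (0.68 ± 0.07), with cox1102 next (0.62 ± 0.17), while low values were those of mrpl35 (-0.25 ± 0.04), mrpl3 (-0.25 ± 0.04) and mrps16 (-0.24 ± 0.03). The adjusted p of these 15 values ran from 5.34e-12 for mrpl22 to 0.136 for cox1102. Group means rose at every step from 2 to 8 h with drug in 31 of 76 members (40.8%), against 26.5% of all genes.

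Whether the effect of the drug differed between times was tested per gene. From 2 to 8 h it moved upward in 64 members (42.4% of all genes) and downward in 5 (39.4%), with 9 called higher against 12.6% of all genes and 0 called lower against 19.4%. The median of this difference was 0.59 on the log2 scale over the members and 0.02 over all genes. Of the 9, mrpl20, rml2 (L2, a protein of the peptidyl transferase centre), mrpl22, mrpl25 (L59), tam9 and mhr1 are of the large subunit, and mrps9, mrp5 and mrps8 (S8) of the small one. Single libraries moved 2 of them under 2-fold: mrpl22 had 0.993 without the third treated 2 h library, and mhr1 0.995 without the first untreated 8 h library. The largest difference was that of mrps9, whose reads may include those of the gene over it. mrps9 had 77.3, 79.3 and 79.1 CPM at 2 h with drug, against 112, 116 and 118 CPM at 2 h without. mrps9 had 112, 115 and 115 CPM at 8 h with drug, against 60.1, 61.5 and 64.9 CPM at 8 h without. The treated libraries were below the untreated ones at 2 h and above them at 8 h, and the difference was 1.43 ± 0.05 (adjusted p = 1.46e-16). The same turn was seen in mrp5, with a drug effect of 1.03 ± 0.04 at 8 h and -0.32 ± 0.04 at 2 h and a difference of 1.34 ± 0.05 (adjusted p = 9.82e-16). For tam9 the drug effect was 0.04 ± 0.05 at 8 h and -1.15 ± 0.05 at 2 h, a difference of 1.19 ± 0.08 (adjusted p = 2.08e-12). The members with the most negative difference were rsm27 (-0.61 ± 0.05), mrps16 (-0.44 ± 0.05), sws2 (-0.35 ± 0.05) and mrpl9 (L3, -0.27 ± 0.05), all with an adjusted p of at most 3.71e-05.

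A shift in the same direction was measured at 4 h. It was taken against the same 2 h libraries as the difference at 8 h, so these differences are not independent. The drug effect at 4 h minus that at 2 h was above 0 in 48 members that passed the test (38.8% of all genes) and below 0 in 7 (35.7%), with a median of 0.32 over the members and 0.01 over all genes. No member was called by edgeR or DESeq2, against 9.73% of all genes higher and 13.2% lower, and 56 members had an unadjusted p below 0.05. Under library-size scaling the members' median was 0.19 and that of all genes -0.11. The largest values were those of mrp5 (0.96 ± 0.05), tam9 (0.84 ± 0.08) and mrpl22 (0.77 ± 0.05), with adjusted p of 5.12e-13, 1.25e-09 and 8.1e-12, and rsm25 (S23) came next (0.73 ± 0.05). The lowest were snr1 (-0.37 ± 0.08), mrpl24 (-0.34 ± 0.08), fyv4 (-0.33 ± 0.06) and cox1102 (-0.31 ± 0.24), with adjusted p of 0.000209, 0.00109, 2.74e-05 and 0.251.

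**Figure D5:**
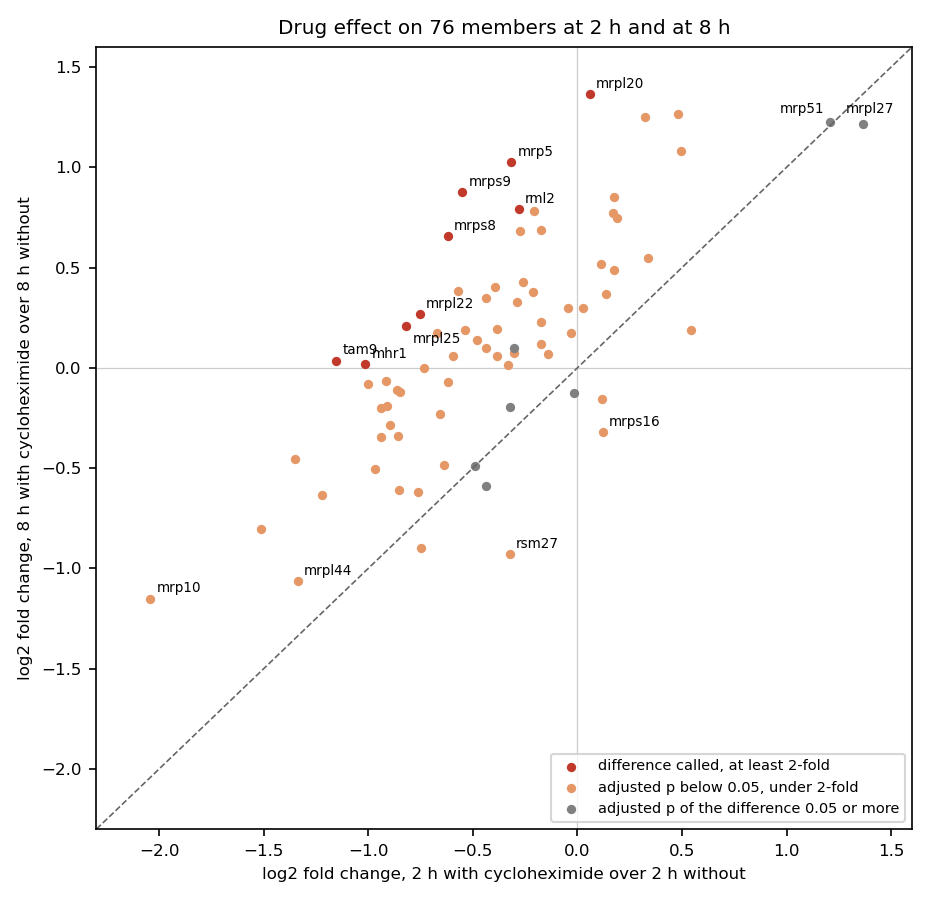
Log2 fold change of cycloheximide over no drug at 8 h (vertical) against the same at 2 h (horizontal) for the 76 tested members; the dashed line marks equal effects. Red points are the 9 members whose difference was called, orange points passed at less than 2-fold and grey points did not pass. Of the 76 points 67 lie above the dashed line, and mrp51 and mrpl27 stay near it at the upper right.

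By the numbering of their products, 48 members belong to protein families that bacterial ribosomes also have (numbers up to L36 and S21) and 23 to families beyond that range, while 6 were not classed. At 2 h with drug over no drug the 47 tested members of bacterial type had a median of -0.33 on the log2 scale and the 23 others -0.59, and at 8 h over 0 h without drug -0.48 and -0.27. Of the members called lower with drug at all 3 times, mrp10 and mrpl44 are of the second kind, as is mrpl27, which was called higher at all 3. Coding lengths were taken from the RefSeq annotation of assembly ASM294v3. Across members Spearman's rho between coding length and log2 fold change was -0.33 for 8 h over 0 h, and 0.22, 0.34 and 0.37 for drug over no drug at 2, 4 and 8 h, against -0.02, 0.27, 0.19 and 0.19 across 5051 protein-coding genes. Members shorter than the median of 532.5 bases had a median of -0.28 at 8 h over 0 h and the longer ones -0.54. Genes are not independent replicates, these values come from the same libraries, and a part of length or RNA quality in any of the changes was not tested.

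Correlation between members was uneven. Over the 21 libraries the Pearson correlation of a member's log2 CPM with the mean of the others had a median of 0.58, was over 0.5 in 45 members and below 0 in 7. The lowest were mrps16 at -0.83, mrpl9 at -0.66, mrpl27 at -0.57 and mrp51 at -0.56. Between groups the highest mean was under 2 times the lowest in 48 of 76 members (63.2%), against 29.5% of all genes, and the narrowest range was that of mrpl9, at 1.11 times. The lowest group was 2 h with drug in 31 members (40.8%, against 19.0% of all genes) and 8 h without drug in 25 (32.9%, against 22.9%), and the highest was 0 h in 40 (52.6%, against 21.9%).

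Other genes of mitochondrial gene expression were grouped by product line. Their calls at 8 h over 0 h stand beside 19.0% of all genes called higher and 15.6% called lower. In that comparison, of 15 mitochondrial translation factors 1 was called higher and 3 lower (passed: 2 up, 9 down; median log2 fold change -0.42), and among them mef1, elongation factor G, had -1.15 ± 0.04 and the release factor gene pth4 1.87 ± 0.14. Of 17 tRNA ligases of mitochondria 0 were called higher and 4 lower (4 up, 12 down; median -0.43). The 2 lowest of these, mrs1 (-1.77 ± 0.05) and hrs1 (-1.35 ± 0.04), serve cytosol and mitochondria alike. Of 8 pentatricopeptide repeat proteins, which act on mitochondrial RNAs, 0 were called higher and 2 lower (0 up, 8 down; median -0.75), and rpo41, the mitochondrial RNA polymerase, fell without reaching 2-fold, with -0.91. Of 10 genes listed for assembly and rRNA 0 were called (4 up, 3 down; median 0.05); this list also caught mitochondrial GTPases that shape membranes, such as dnm1, fzo1 and msp1.

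For drug over no drug the shares of all genes called were 17.1% upward and 20.8% downward at 8 h, and 15.8% and 13.5% at 2 h. At 8 h, 5 of 8 pentatricopeptide repeat genes were called higher and 0 lower (median 1.06), with ppr7 at 1.63 ± 0.06, and rpo41 was called higher (1.497 ± 0.04). Of the translation factors 1 was called higher and 4 lower (median 0.01), with mti2, initiation factor 2, at 1.42 ± 0.04 and pth4 at -1.72 ± 0.14. Of the tRNA ligases 1 was called higher and 5 lower (median -0.12). At 2 h the factors had 0 called higher and 3 lower (median -0.49), the ligases 0 and 5 (median -0.49), and the 10 assembly genes 1 and 1 (median -0.28), namely mtf1, a specificity factor of the mitochondrial RNA polymerase (1.02 ± 0.04), and gep3, a GTPase-related gene (-1.42 ± 0.06).

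Genes of the respiratory chain, whose mitochondrially encoded subunits this ribosome makes, mostly rose at 8 h over 0 h without drug. The list for the respiratory chain and ATP synthase was matched by product line. It also holds assembly genes, such as rcf1 and pet117, and the ATP synthase inhibitor gene inh1. Of its 56 tested nuclear genes, 40 rose (43.3% of all genes) and 9 fell (43.3%) at 8 h over 0 h, with a median of 0.58. Of the 56, 7 were called higher, inh1 the furthest (1.66 ± 0.05), and 1 lower, rcf1 (-1.20 ± 0.13). These stand against 19.0% and 15.6% of all genes. With drug over no drug 14, 17 and 19 were called lower at 2, 4 and 8 h, and 0, 0 and 2 higher (medians -0.76, -0.87 and -0.86). Of all genes 13.5%, 20.9% and 20.8% were called lower at these times, and 15.8%, 19.9% and 17.1% higher. The 130 cytosolic ribosomal protein genes were all called lower at 8 h over 0 h (median -3.60), and 129 were called higher with drug over no drug at 8 h (median 2.83). At 2 h with drug over no drug 1 of them was called higher and 1 lower (median -0.26), whereas 2 and 8 of the mitochondrial set were.

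The authors' deposited tables compare the 6 starved groups with 0 h. In the authors' deposited table for 8 h without drug 5 members passed an adjusted p of 0.05 and 2-fold, all lower, and for 2, 4 and 8 h with drug 12, 4 and 1 were lower and 2, 2 and 2 higher. No member was past these limits in the authors' deposited tables for 2 and 4 h without drug. The shares of all genes past these limits in the deposited tables were not computed, so these counts have no background beside them. Across the 6 comparisons the log2 fold changes of the authors' deposited tables differed from those computed here by at most 0.0683.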

How the data were processed

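Gene counts for 21 libraries were deposited by the authors as whole-number read counts per gene. The authors also deposited tables of log2 fold changes and adjusted p-values against 0 h, whose product lines gave the members. Per the submitters' processing notes, the tools were HTSeq 0.10.0, HISAT2 2.1.0, DESeq2, DESeq and SAMtools, and the build was ASM294v2. Settings and the strand mode of counting were not stated there.

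Counts were fitted with edgeR 4.0.16 (R 4.3.3), using TMM scaling, its expression filter by group (6392 of 6988 genes kept, 596 removed), group as the single factor and the quasi-likelihood test, with Benjamini-Hochberg adjustment over all genes tested. Standard errors came from the fold change and its F value. Replicate pairs were compared by chi-square: the statistic per gene was 3.62 to 23.2 over 21 pairs, so no pair agreed within sampling noise and each library was counted once.

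The members and lists were chosen with earlier results of these data known. Named genes are the 4 highest and 4 lowest members per comparison, members called against the main direction, the 3 highest and 3 lowest per kb at 0 h, untested members, and the 5 other genes closest to the members' mean profile; further called members and genes of other lists were named after their values were seen. In simulated counts with 50 changed genes per fold size for 8 h over 0 h (6231 genes), 44 passed at 1.25-fold, 47 at 1.5-fold, 50 at 2-fold and 50 at 4-fold, and 9 of 6031 unchanged genes passed. All groups were drawn from the 0 h means, and the changed genes went up and down in equal number. The wide change of the real 8 h libraries and its bearing on the scaling were therefore not simulated. Alternatives were RLE or library-size scaling, other filters, DESeq2 1.42.0, fewer groups, a replicate block, other fold limits and leaving out each library. Promoter sequences were not used here. The values of 1 member are not reported here; it stays in the counts, sums and medians.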

Additional observations from a re-analysis of the deposited data

Results flagged for a closer look

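The change from 2 to 8 h differed between cultures with and without cycloheximide in 9 members, each by an interaction term in edgeR's quasi-likelihood test at an adjusted p below 0.05 and at least 2-fold. On the log2 scale the drug effect at 8 h minus that at 2 h was 1.43 for mrps9, 1.34 for mrp5, 1.31 for mrpl20, 1.28 for mrps8, 1.19 for tam9, 1.07 for rml2, 1.03 for mhr1, 1.03 for mrpl25 and 1.02 for mrpl22. All 9 were positive. These 9 of 76 members stand beside 12.6% of all genes called in that direction and 19.4% called in the other. Under 2-fold fell mhr1, at 0.995 without the first untreated 8 h library, and mrpl22, at 0.993 without the third treated 2 h library.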

How the results depend on the processing

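The direction of none of the 145 named values was reversed in the 2011 recalculations; 1960 kept their side of the call, 46 lost it and 5 gained it. Counted at any fold, the members past the test were 45, 58 and 63 for 2, 4 and 8 h over 0 h, 71, 67 and 66 for 2, 4 and 8 h with drug over 0 h, and 68, 65 and 63 for drug over no drug. For the steps 2 to 4 h and 4 to 8 h they were 52 and 47 without drug and 50 and 48 with drug, and for the drug effect differences 69 (8 and 2 h) and 55 (4 and 2 h). With a 1.5-fold limit the counts were 12 and 31 (4 and 8 h over 0 h), 36, 27 and 24 (with drug over 0 h), 31, 25 and 25 (drug over no drug), 1 and 1 (steps without drug), 4 and 4 (steps with drug), and 41 and 13 (drug effect differences). The shares of all genes at the 1.5-fold limit were not computed. These counts therefore show only how the members' counts depend on the limit. With library size alone the members' median was -0.0271, -0.0519 and -0.20 for 2, 4 and 8 h over 0 h, -0.39 and -0.0581 for 2 and 8 h with drug over 0 h, -0.0181 for 4 over 2 h, 0.18 for 8 over 4 h with drug and 0.19 for the drug effect at 4 h minus that at 2 h; 1 member was called at 8 h over 0 h and 1 at 8 over 4 h with drug. Fitting the compared groups alone gave 3 calls and a median of -0.36 for 8 h over 0 h, and a median of -0.23 for 8 h with drug over 0 h; the cause was not tested. Medians for 2 h with drug over 0 h and over 2 h were -0.43 and -0.35 with RLE factors and the same with DESeq2. The stricter filter, which tests fewer members, gave 0.0776 for drug over no drug at 8 h and 0.53 for the difference between 8 and 2 h. Leaving out 1 library at a time gave 6 to 8 calls at 8 h over 0 h, 14 to 16, 7 to 10 and 3 to 4 for 2, 4 and 8 h with drug over 0 h, 8 to 10, 7 to 8 and 8 to 9 for drug over no drug, 8 to 11 for the difference between 8 and 2 h, and 0 elsewhere.

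Same-numbered libraries had deviations correlated at -0.29 to 0.37 over 63 pairs (median 0.042), with 11 pairs over 0.1, so the numbers were not taken to pair the samples. With the replicate block the count at 8 h over 0 h was 6 and no count of calls moved by over 1.5 times. The planned promoter motif search and its other window were not run. Genes with few counts, such as cox1102 with at least 79 counts per library, carry the largest counting error.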

Other observations

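Among protein-coding genes outside the set, those whose log2 CPM over the 21 libraries was closest to the members' mean profile were snd2 (Pearson's r = 0.980), mkt1 (0.974), tom5 (0.972), alp13 (0.970) and alp31 (0.970). By product lines snd2 serves targeting to the endoplasmic reticulum, mkt1 RNA stability, tom5 the import pore of the mitochondrial outer membrane, alp13 a histone deacetylase complex and alp31 tubulin folding. These values come from the same libraries and carry no test.

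In the RefSeq annotation (assembly ASM294v3) 2 pairs of members are adjacent and divergently transcribed, mrps12 with mrpl28 and yml6 with snr1. At 2 h with drug over no drug the log2 fold changes were -0.66 ± 0.04 for mrps12 and -0.90 ± 0.04 for mrpl28. For yml6, which encodes L4, and snr1 they were -0.17 ± 0.04 and -0.97 ± 0.05. At 4 h they were 0.38 ± 0.04 for yml6 and -1.34 ± 0.05 for snr1.

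The first untreated 8 h library had the lowest level of its group in 34 of 76 members, and in 20 of the 38 shorter ones. It was also the highest of its group in 34 members. Other libraries lay further to one side. The first treated 8 h library was lowest in 49 members and highest in 14. The third treated 8 h library was lowest in 12 and highest in 46. At 4 h without drug the third library was lowest in 11 members and highest in 45.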
